A study of Mus musculus with 12 samples.

Results

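The genes described here encode the glycoproteins and proteoglycans of the extracellular matrix other than the collagens, together with the enzymes that crosslink elastic fibres and make hyaluronan. They were taken from a list of 47 gene names, and all 47 had a named probe among the 17742 genes named on the array. Where a gene had more than 1 probe, the brightest on average over all arrays was used. Expression was measured in whole hearts of mice at postnatal day 8, of a C57bl/6 X 129 hybrid background, on 12 one-colour arrays. Salvador mutant hearts (Salv CKO, where CKO commonly stands for conditional knockout) gave 2 samples and wild-type hearts (Control) gave 2, with 3 technical arrays of each sample. The Cre driver, the deleted part of the gene, and whether a sample held 1 heart or several were not given in the sources used here. One label calls the tissue embryonic, whereas the stage label and the extraction protocol give postnatal day 8.

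The matrix of the heart is a meshwork in which heart muscle cells, vessels and fibroblasts are anchored. Around each muscle cell and vessel lies a basement membrane of laminins, nidogens, perlecan and type IV collagen, while the space between cells holds fibronectin, elastic fibres on a scaffold of fibrillins, and collagens bound by small leucine-rich proteoglycans. Matricellular proteins such as periostin and the tenascins are laid down mainly in development and repair and modulate the contact of cells with this meshwork. Salvador is a scaffold protein of the Hippo kinase cascade, which restrains the co-activators Yap1 and Wwtr1, partners of the TEAD transcription factors. Known targets of that pathway include secreted matrix proteins.

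Sav1, the targeted gene, did not follow the labels. Its log2 level was 8.06 and 8.52 in Salv CKO 1 and 2, against 8.75 and 8.08 in Control 1 and 2, and the groups overlapped. Each sample is therefore called by its label only, and every direction below is that of the labels. Of 10 heart muscle markers 5 were measured and were bright in both groups, with cardiac actin (Actc1) at log2 levels of 15.35 and 15.35 in Salv CKO 1 and 2, against 15.37 and 15.62 in Control 1 and 2. Of 13 fibroblast markers, 12 were measured, and their summed normalised intensity was 63574 and 65900 in Salv CKO 1 and 2, against 65338 and 68649 in Control 1 and 2. Of the 12, 3 were higher in Salv CKO and 9 lower (median -0.073), and 1 to 5 were higher with a sample left out. Both Salv CKO samples lay below both controls for 4 (33.3%), against 16.5% of all genes, and above them for 0. Among these markers Col1a1 was near background in every sample, and Pdgfra crossed the labels, at deposited intensities (before normalisation) of 0.667 and 2000 in Salv CKO 1 and 2, against 4 and 1041 in Control 1 and 2. Why this probe was near background in 1 sample of each group was not tested. All 8 adipocyte markers were measured, and their sum was 21258 and 16398 in Salv CKO 1 and 2, against 27589 and 23026 in Control 1 and 2. Of these, 7 were lower in Salv CKO, with a median log2 difference of -0.99, and -0.29 without Salv CKO 2. The 7 valve and cartilage-like markers summed to 775 and 865 in Salv CKO 1 and 2, against 832 and 736 in Control 1 and 2. Among them 4 were higher in Salv CKO and 3 lower (median 0.23), with 4 to 6 higher when a sample was left out. For 3 of the 7 (42.9%) both Salv CKO samples lay above both controls, against 14.2% of all genes. At an unadjusted p under 0.05 in limma 1 was higher, as were 275 of all 17742 named genes. For 3 measured erythroid markers the sum was 9068 and 13622 in Salv CKO 1 and 2, against 10968 and 5251 in Control 1 and 2. Of 9 measured smooth muscle and pericyte markers (10 listed), 3 were higher in Salv CKO, by at most 0.10 on the log2 scale, and 6 lower. Among the lower ones, 3 faint markers, Tagln, Cnn1 and Lmod1, had an unadjusted p under 0.05 in limma, with Tagln at -2.00. Over all 17742 named genes, 314 were lower at such a p. The list summed to 9082 and 9064 in Salv CKO 1 and 2, against 9567 and 9546 in Control 1 and 2. Lung airway and liver markers summed to 883 and 297 in Salv CKO 1 and 2, against 259 and 2771 in Control 1 and 2, with the airway gene Scgb1a1 the brightest in Control 2. Epicardial markers summed to 4230 and 5334 in Salv CKO 1 and 2, against 5113 and 4852 in Control 1 and 2, and 5 of 8 were lowest in Salv CKO 1. The part of these cell types in the values below was not tested, and in whole hearts fewer cells of a type and less RNA per cell cannot be told apart.

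Levels are given as log2 of the quantile-normalised probe intensity plus 1, averaged over the technical arrays of a sample, and differences are Salv CKO minus Control on that scale. The brightness of a probe also depends on its sequence, so levels are set side by side between samples and not between genes. No matrix gene passed an adjusted p of 0.05 in limma, where 0% of the 26423 probes did (smallest adjusted p = 0.999). Without the adjustment 0 of 47 matrix genes had a p under 0.05, against 3.32% of all named genes. Differences were positive for 22 matrix genes and negative for 25, with a median of -0.039, against a median of -0.021 and 46.9% positive over all genes. This count rested on single samples: it was 14 of 47 without Salv CKO 2, 15 without Control 1 and 25 without Salv CKO 1. It was 13 with arrays centred on their medians, where Mfap2, Fbln5, Lamc1, Vtn, Postn, Sparc, Sparcl1, Tnc and Bgn turned negative and the median over all probes was -0.080.

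Both Salv CKO samples lay above both controls for 4 matrix genes (8.51%), namely Emilin1, Lama3, Nid2 and Spp1, against 14.2% of all genes. Both lay below both controls for 10 (21.3%), against 16.5% of all genes. These 10 were Eln, Mfap4, Loxl1, Lamb2, Lamb3, Ecm1, Matn2, Thbs2, Thbs3 and Thbs4. For the other 33 the groups overlapped. Of the 47 differences, 43 were smaller than 0.5 in either direction, and the 95% interval of each of the 47 held 0. For 33 genes that interval lay within 1 log2 unit of 0 on either side, and for the other 14 the arrays do not bound the difference that closely.

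**Figure D1:**
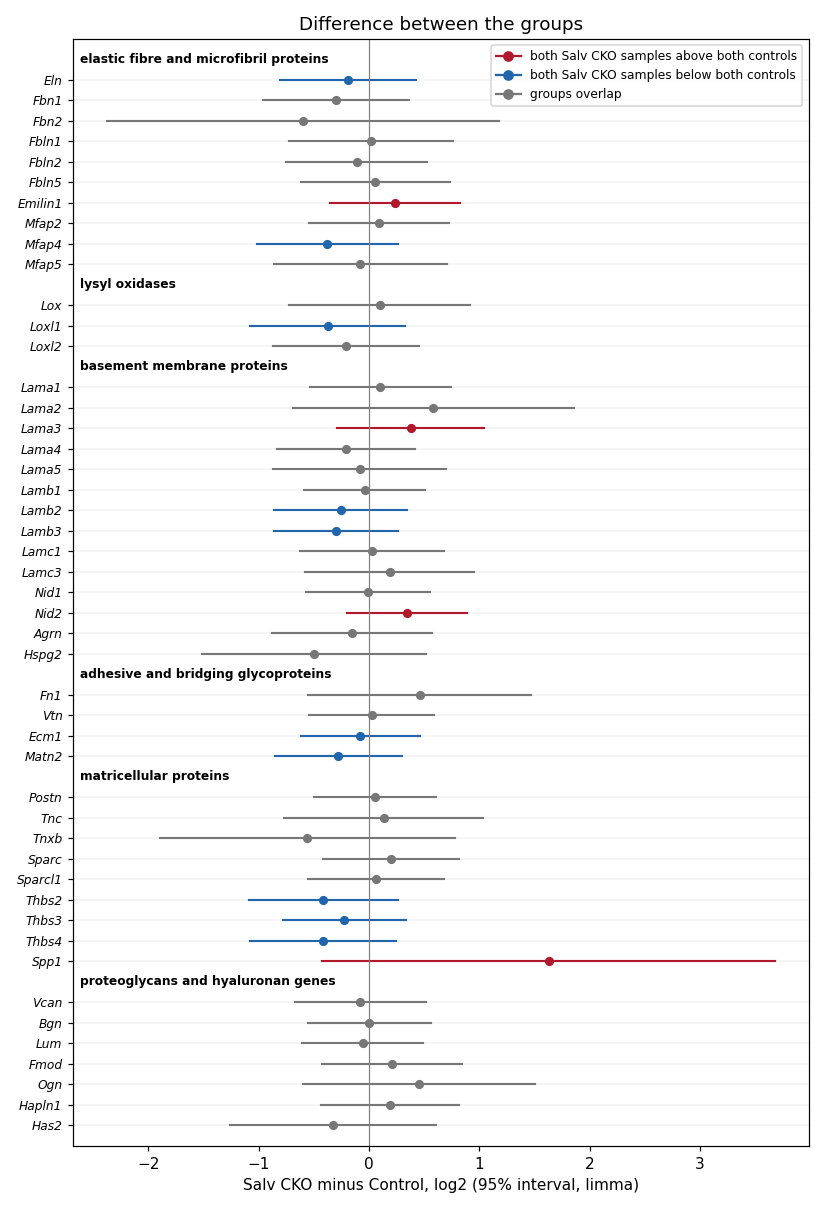
Difference between the groups (Salv CKO minus Control, log2 scale) for each of the 47 matrix genes, grouped by role, with the 95% interval from limma (2 samples against 2). Every interval crosses 0, and Spp1 has the largest difference (1.63) and the widest interval.

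The TEAD factors bind the 6 letters GGAATG, which read CATTCC on the other strand, and the windows around the gene starts were searched for them on both strands because the mutated pathway acts through these factors. RefSeq windows of 300 bases (250 before the start and 50 after, GRCm38.p6) matched 29 of the 47 genes by symbol. At least 1 match stood in the windows of 6 of these genes, or 20.7%, against 16.6% of 27025 genes with a window. Each is shown upstream of the start, read 5′ to 3′ on the strand of the gene, with the match in capitals.
Lamb3, chr1:193302046-193302111, plus strand: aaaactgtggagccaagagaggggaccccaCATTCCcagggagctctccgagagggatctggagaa
Mfap2, chr4:141010218-141010283, plus strand: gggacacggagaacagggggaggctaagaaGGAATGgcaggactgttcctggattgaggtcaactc
Nid1, chr13:13437407-13437472, plus strand: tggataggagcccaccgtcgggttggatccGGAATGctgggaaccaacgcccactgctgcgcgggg
Ogn, chr13:49607899-49607964, plus strand: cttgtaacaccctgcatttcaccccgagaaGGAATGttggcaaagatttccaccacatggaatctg
Thbs4, chr13:92794980-92795045, minus strand: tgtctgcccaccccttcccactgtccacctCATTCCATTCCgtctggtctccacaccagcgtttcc
Vtn, chr11:78498870-78498921, plus strand: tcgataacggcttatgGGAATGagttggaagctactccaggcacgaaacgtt
The match in Ogn began 86 bases before the start, and Thbs4 held a pair of matches that overlap by a letter, at 197 and 192 bases. The remaining matches began 165 bases before the start in Nid1, 167 in Lamb3, 176 in Mfap2 and 234 in Vtn. The differences of these 6 genes ran both ways, at 0.45 in Ogn, 0.091 in Mfap2, 0.023 in Vtn, -0.0055 in Nid1, -0.30 in Lamb3 and -0.42 in Thbs4. None passed the test. The AP-1 letters TGANTCA were found for 2 of the 29 genes (Ecm1 and Tnxb), or 6.90%, against 8.97% of all genes, and TATAAA for 7, or 24.1%, against 15.7%.

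Among the 10 genes of elastic fibres and microfibrils, 4 differences were positive and 6 negative, with a median of -0.095. With a sample left out 2 (without Salv CKO 2) to 5 (without Control 1) were positive, and the median without Control 1 was 0.0046. Eln, which encodes the elastic core protein tropoelastin, had log2 levels of 14.05 and 14.05 in Salv CKO 1 and 2, against 14.42 and 14.07 in Control 1 and 2. The Eln groups did not overlap, but the gap to Control 2 was far smaller than the gap to Control 1. Its difference of -0.19 ± 0.23 (SE, limma) was -0.018 without Control 1 and -0.37 without Control 2. Fbn1, the main fibrillin of the microfibrils on which elastin is deposited, stood at 11.80 and 12.10 in Salv CKO 1 and 2, against 12.42 and 12.09 in Control 1 and 2. Salv CKO 2 thus lay close to Control 2, and the Fbn1 difference was -0.30 ± 0.25 (SE, 95% interval -0.96 to 0.36).

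Fbn2, the fibrillin used mostly before birth, varied more than any other gene here apart from Spp1. Its log2 levels were 8.31 and 9.48 in Salv CKO 1 and 2, against 10.28 and 8.72 in Control 1 and 2, so the samples of each group differed more than the groups did. The 3 technical arrays of a sample lay close together, with a pooled SD of 0.091, against 0.975 between samples of a group. Its difference was -0.60 ± 0.67 (SE, 95% interval -2.38 to 1.18), and 0.18 without Control 1. Mfap4, a microfibril-associated glycoprotein that binds elastin, had log2 levels of 11.68 and 11.67 in Salv CKO 1 and 2, against 11.86 and 12.25 in Control 1 and 2. Both Salv CKO values lay below both controls, with a difference of -0.38 ± 0.24 (SE, 95% interval -1.01 to 0.26). That difference was -0.18 without Control 2 and -0.57 without Control 1. Emilin1, a glycoprotein at the interface of elastin and microfibrils, was the only gene of this role with both Salv CKO samples on top. Its levels were 10.46 and 10.19 in Salv CKO 1 and 2, against 10.06 and 10.11 in Control 1 and 2, a difference of 0.24 ± 0.22 (SE). Without Salv CKO 1 that difference was 0.10, and without Salv CKO 2 it was 0.37.

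The fibulins, which link elastin to its scaffold, showed differences of 0.021 (Fbln1), -0.11 (Fbln2) and 0.058 (Fbln5). Fbln2 had 12.09 and 12.48 in Salv CKO 1 and 2, against 12.41 and 12.39 in Control 1 and 2, so the 2 Salv CKO samples lay on either side of the controls. Fbln1 was faint, with deposited intensities from 28.7 to 47 over the 4 samples. Mfap2 and Mfap5, microfibril glycoproteins, differed by 0.091 and -0.079, and the sign of each turned when a single sample was left out.

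The 3 lysyl oxidases crosslink elastin and collagen, and 1 of them had a positive and 2 a negative difference (median -0.21, and -0.0080 without Control 2). Loxl1, which acts on elastic fibres, had log2 levels of 12.26 and 12.49 in Salv CKO 1 and 2, against 12.98 and 12.52 in Control 1 and 2. The groups did not overlap, although Salv CKO 2 and Control 2 lay close together. The Loxl1 difference of -0.37 ± 0.27 (SE, 95% interval -1.08 to 0.33) was -0.14 without Control 1 and -0.61 without Control 2. Loxl2 stood at 12.68 and 12.85 in Salv CKO 1 and 2, against 12.78 and 13.18 in Control 1 and 2, and the groups overlapped (difference -0.21 ± 0.25, SE). That difference was -0.0080 without Control 2 and -0.020 as the mean over its probes. Lox had levels of 8.37 and 8.93 in Salv CKO 1 and 2, against 8.33 and 8.78 in Control 1 and 2, a difference of 0.098 ± 0.31 (SE). The second probe of Lox was at deposited intensities of 73.0 and 82.7 in Salv CKO 1 and 2, against 4.67 and 58.7 in Control 1 and 2, so that Control 1 was far below the other samples on that probe, for a cause that was not tested. For Loxl2 the second probe ran the other way, at 0.17, and the second probe of Loxl1 was at background.

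Basement membrane genes were the largest role, with 14 members, of which 6 had a positive and 8 a negative difference (median -0.022). Without Salv CKO 1 it was 9 positive and a median of 0.11, and without Salv CKO 2 it was 4 positive and a median of -0.12. Lamb2, the laminin beta-2 chain of muscle and vessel basement membranes, stood at 13.59 and 13.72 in Salv CKO 1 and 2, against 14.06 and 13.77 in Control 1 and 2. The groups did not overlap. The Lamb2 difference of -0.26 ± 0.23 (SE, 95% interval -0.86 to 0.35) was -0.11 without Control 1 and -0.40 without Control 2. Nid2, the second nidogen, which ties laminin to type IV collagen, had both Salv CKO samples on top. Its log2 levels were 12.57 and 12.61 in Salv CKO 1 and 2, against 12.29 and 12.21 in Control 1 and 2. Samples of a group differed by an SD of 0.046, and the difference of 0.34 ± 0.21 (SE, 95% interval -0.20 to 0.89) ran from 0.30 to 0.38 over the 4 fits with a sample left out, but was 0.11 with arrays centred on their medians. The technical arrays of a Nid2 sample had a pooled SD of 0.187, above that between samples. Its paralogue Nid1 differed by -0.0055, and its 4 samples lay within 0.152 of each other on the log2 scale. A faint second probe of Nid1 had deposited intensities of 47 and 34 in Salv CKO 1 and 2, against 3.33 and 26.3 in Control 1 and 2.

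Lama2, the alpha chain of the laminin that surrounds muscle fibres and whose loss causes congenital muscular dystrophy, showed Control 1 apart from the other 3 samples. Its log2 levels were 12.91 and 12.90 in Salv CKO 1 and 2, against 11.66 and 12.99 in Control 1 and 2. Relative to the mean of the other samples Control 1 lay at -1.27, while the technical arrays of a sample had a pooled SD of 0.062. The Lama2 difference came to 0.58 ± 0.48 (SE, 95% interval -0.69 to 1.85), and -0.079 without Control 1. Hspg2, which encodes the heparan sulphate proteoglycan perlecan, showed Control 1 on the opposite side. Its log2 levels were 10.74 and 11.09 in Salv CKO 1 and 2, against 11.88 and 10.95 in Control 1 and 2, a difference of -0.50 ± 0.38 (SE, 95% interval -1.51 to 0.52). Without Control 1 the Hspg2 difference was -0.035.

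Lama3 and Lamb3, chains of the laminin known from epithelia, separated in opposite directions. Lama3 was at 5.70 and 5.90 in Salv CKO 1 and 2, against 5.22 and 5.62 in Control 1 and 2, a difference of 0.38 ± 0.25 (SE, 95% interval -0.29 to 1.04). It was faint, with deposited intensities of 52.7 and 65 in Salv CKO 1 and 2, against 32.3 and 45 in Control 1 and 2. Without Control 1 the Lama3 difference was 0.18, and without Control 2 it was 0.58. The second Lama3 probe ran the same way, at 0.73. Lamb3 stood at 8.96 and 8.77 in Salv CKO 1 and 2, against 9.15 and 9.19 in Control 1 and 2, a difference of -0.30 ± 0.21 (SE, 95% interval -0.86 to 0.26). Of the chains common in vessels and muscle, Lama4 differed by -0.21, Lama5 by -0.086, Lamb1 by -0.039 and Lamc1 by 0.029. Lama1 and Lamc3, faint at deposited intensities from 45.7 to 87.7, differed by 0.10 and 0.19. Agrn, the proteoglycan agrin, had its highest level in Control 1 and its lowest in Control 2, at 10.46 and 10.52 in Salv CKO 1 and 2, against 10.92 and 10.37 in Control 1 and 2. Its difference was -0.15, and 0.12 without Control 1.

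Of the 4 adhesive and bridging glycoproteins, 2 had positive and 2 negative differences (median -0.027), and with a sample left out the median ran from -0.064 (without Salv CKO 1) to 0.0097 (without Salv CKO 2). Fn1, fibronectin, which integrins bind and on which other matrix proteins assemble, had log2 levels of 11.61 and 11.88 in Salv CKO 1 and 2, against 10.82 and 11.76 in Control 1 and 2. Control 1 again stood apart, and the difference of 0.46 ± 0.38 (SE, 95% interval -0.55 to 1.47) was -0.012 without it. Matn2, a matrilin that bridges matrix filaments, stood at 9.60 and 9.76 in Salv CKO 1 and 2, against 9.88 and 10.04 in Control 1 and 2. The groups did not overlap, and the difference was -0.28 ± 0.22 (SE, 95% interval -0.85 to 0.29), and from -0.36 to -0.20 over the 4 fits with a sample left out. Ecm1, extracellular matrix protein 1, ranged over only 0.114 on the log2 scale, at 10.49 and 10.52 in Salv CKO 1 and 2, against 10.56 and 10.60 in Control 1 and 2. Vtn, vitronectin, an adhesive protein that is also abundant in plasma, stood at 12.19 and 12.003 in Salv CKO 1 and 2, against 12.12 and 12.03 in Control 1 and 2. The Vtn groups overlapped (difference 0.023, 95% interval -0.54 to 0.59).

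Among the 9 matricellular genes, 5 differences were positive and 4 negative, with a median of 0.057. It was 3 positive and a median of -0.21 without Salv CKO 2, and 3 positive and -0.099 without Control 1. Postn, periostin, made by fibroblasts and valve cells, was bright in all samples, at log2 levels of 14.47 and 14.61 in Salv CKO 1 and 2, against 14.46 and 14.51 in Control 1 and 2. The groups overlapped, and the 95% interval of its difference, 0.057, ran from -0.50 to 0.61. Thbs4, a thrombospondin of muscle and tendon matrix that responds to load in the heart, stood at 7.12 and 7.55 in Salv CKO 1 and 2, against 7.80 and 7.71 in Control 1 and 2. Thbs2, the thrombospondin known as an inhibitor of vessel growth, stood at 9.31 and 9.73 in Salv CKO 1 and 2, against 9.84 and 10.03 in Control 1 and 2. Thbs3 gave the same order of the groups, at 7.65 and 7.74 in Salv CKO 1 and 2, against 7.98 and 7.86 in Control 1 and 2. All 3 thrombospondins on the list thus had both Salv CKO samples below both controls, as did 16.5% of all genes. Their differences were -0.42 ± 0.25 for Thbs4, -0.41 ± 0.26 for Thbs2 and -0.22 ± 0.21 for Thbs3 (SE). Without Salv CKO 1 the differences of Thbs4 and Thbs2 were -0.20 each, and without Salv CKO 2 they were -0.64 and -0.62. The second probe of Thbs2, a dimmer one, ran the other way, at 8.01 and 8.24 in Salv CKO 1 and 2, against 7.32 and 8.08 in Control 1 and 2. As the mean over its probes the Thbs2 difference was 0.0034.

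Spp1, osteopontin, a secreted phosphoprotein of macrophages, bone and injured muscle, had the largest difference and the least certain one. Its deposited intensities were 9, 42 and 12 on the arrays of Salv CKO 1 and 75, 60 and 78 on those of Salv CKO 2, against 44, 0 and 6 in Control 1 and 10, 15 and 14 in Control 2. Only Salv CKO 2 was above the others on all its arrays. The technical arrays of a sample had a pooled SD of 1.43, above the 1.14 between samples of a group. The Spp1 difference was 1.63 ± 0.78 (SE, 95% interval -0.43 to 3.68), 0.65 without Salv CKO 2 and 0.80 at a pseudocount of 16. Macrophage markers, of which 7 of 8 were measured, summed to a normalised intensity of 6430 and 6703 in Salv CKO 1 and 2, against 6474 and 6842 in Control 1 and 2, and their part in the Spp1 values was not tested.

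Tnxb, tenascin-X, which spaces collagen fibrils, stood at 8.64 and 9.76 in Salv CKO 1 and 2, against 10.19 and 9.33 in Control 1 and 2. The samples of a group differed by an SD of 0.704, and the difference of -0.56 ± 0.51 (SE, 95% interval -1.90 to 0.78) was -0.0015 without Salv CKO 1 and -0.13 without Control 1. Tnc, tenascin-C, a protein of embryonic and healing tissue, stood at 9.19 and 9.88 in Salv CKO 1 and 2, against 9.17 and 9.64 in Control 1 and 2, so that each group held a low and a high sample (difference 0.13). Sparc, the collagen-binding osteonectin, stood at 14.06 and 14.14 in Salv CKO 1 and 2, against 13.73 and 14.06 in Control 1 and 2. Its difference of 0.20 was 0.035 without Control 1, and its relative Sparcl1, also lowest in Control 1, differed by 0.062.

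For all 7 genes of proteoglycans and hyaluronan the groups overlapped, and 4 differences were positive and 3 negative, with a median of 0.0021. Without Control 1 it was 2 positive and a median of -0.066, and without Salv CKO 1 it was 5 and 0.081. Lum, lumican, a small leucine-rich proteoglycan that regulates collagen fibril width, was among the steadiest genes, at 13.32 and 13.26 in Salv CKO 1 and 2, against 13.31 and 13.39 in Control 1 and 2. Bgn, biglycan, of the same family, stood at 12.24 and 12.39 in Salv CKO 1 and 2, against 12.29 and 12.34 in Control 1 and 2, and differed by 0.0021 (95% interval -0.55 to 0.56). Ogn, osteoglycin or mimecan, differed between controls more than between groups. Its levels were 12.27 and 12.20 in Salv CKO 1 and 2, against 11.26 and 12.30 in Control 1 and 2, and the difference of 0.45 ± 0.40 (SE, 95% interval -0.60 to 1.51) was -0.066 without Control 1. Fmod, fibromodulin, stood at 7.62 and 7.92 in Salv CKO 1 and 2, against 7.44 and 7.68 in Control 1 and 2, a difference of 0.21 ± 0.24 (SE).

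Has2, the enzyme that makes most hyaluronan in the heart and is needed for valve formation, stood at 6.31 and 6.94 in Salv CKO 1 and 2, against 6.64 and 7.26 in Control 1 and 2. The groups overlapped, and its difference of -0.33 ± 0.35 (SE, 95% interval -1.26 to 0.61) was -0.016 without Control 2 and -0.015 without Salv CKO 1. Hapln1, which links hyaluronan to versican, stood at 6.12 and 6.40 in Salv CKO 1 and 2, against 6.19 and 5.95 in Control 1 and 2 (difference 0.19 ± 0.24, SE). Vcan, versican, the large hyaluronan-binding proteoglycan, differed by -0.079, and its second probe was near background at deposited intensities of at most 5.67.

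**Figure D2:**
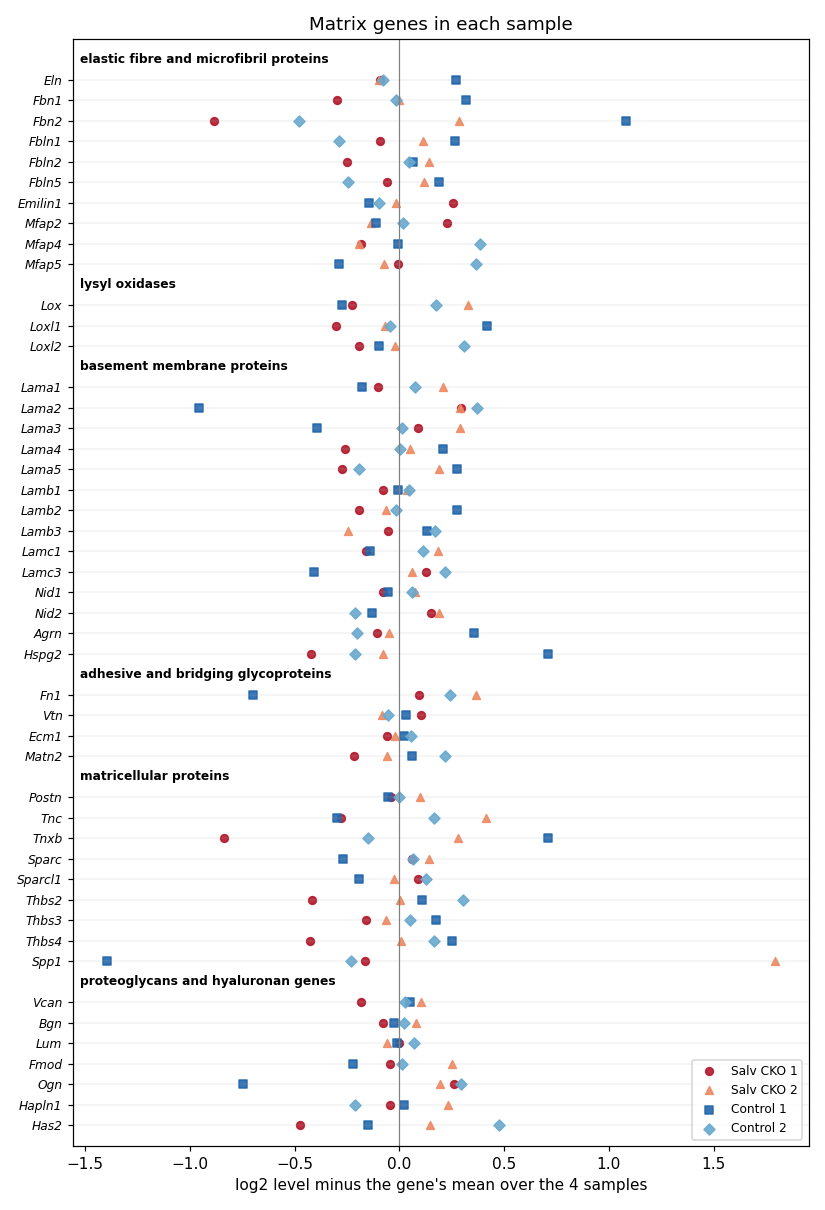
Log2 level of each matrix gene in each sample, as the distance from the mean of that gene over the 4 samples, grouped by role. Red circles and orange triangles are Salv CKO 1 and 2, and dark blue squares and light blue diamonds are Control 1 and 2. Most genes lie within a narrow band, and Control 1 stands apart from the other samples for Lama2, Hspg2, Fn1 and Ogn.

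The spread of the matrix genes between samples is set beside that of all named genes as a description, since it also depends on how bright a probe is. Over the 4 samples 26 of 47 (55.3%) ranged over less than 0.5 on the log2 scale, against 43.3% of all genes, and 7 (14.9%) ranged over 1 or more, against 21.3%. The median SD between samples of a group was 0.200 for the matrix genes and 0.241 over all genes, and that between technical arrays was 0.0874 and 0.136. Deposited intensities reached 1000 in every sample for 27 of the 47 genes and stayed below 100 in every sample for 6. For 39 genes the samples of a group differed more than the technical arrays did.

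The 7 genes with the widest range were Spp1, Fbn2, Tnxb, Lama2, Hspg2, Fn1 and Ogn. Spp1 was near background, with a Control 1 array at an intensity of 0, so the order of its controls is not a measured one. Of the other 6, Control 1 had the highest level of Fbn2, Tnxb and Hspg2 and the lowest of Lama2, Fn1 and Ogn. Relative to the mean of the other 3 samples, Control 1 lay at 1.44 for Fbn2, 0.95 for Hspg2 and 0.95 for Tnxb. It lay at -1.27 for Lama2, -0.997 for Ogn and -0.93 for Fn1. For Fbn2 and Tnxb the other samples were themselves spread widely, whereas for Lama2, Hspg2, Fn1 and Ogn they lay closer to each other than to Control 1. The deviation ran both ways within a role, as Lama2 and Hspg2 are both of the basement membrane. With Control 2 left out, so that Control 1 stood for its group, the differences were 1.25 for Lama2, 0.98 for Ogn, 0.93 for Fn1, -0.96 for Hspg2 and -1.38 for Fbn2.

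**Figure D3:**
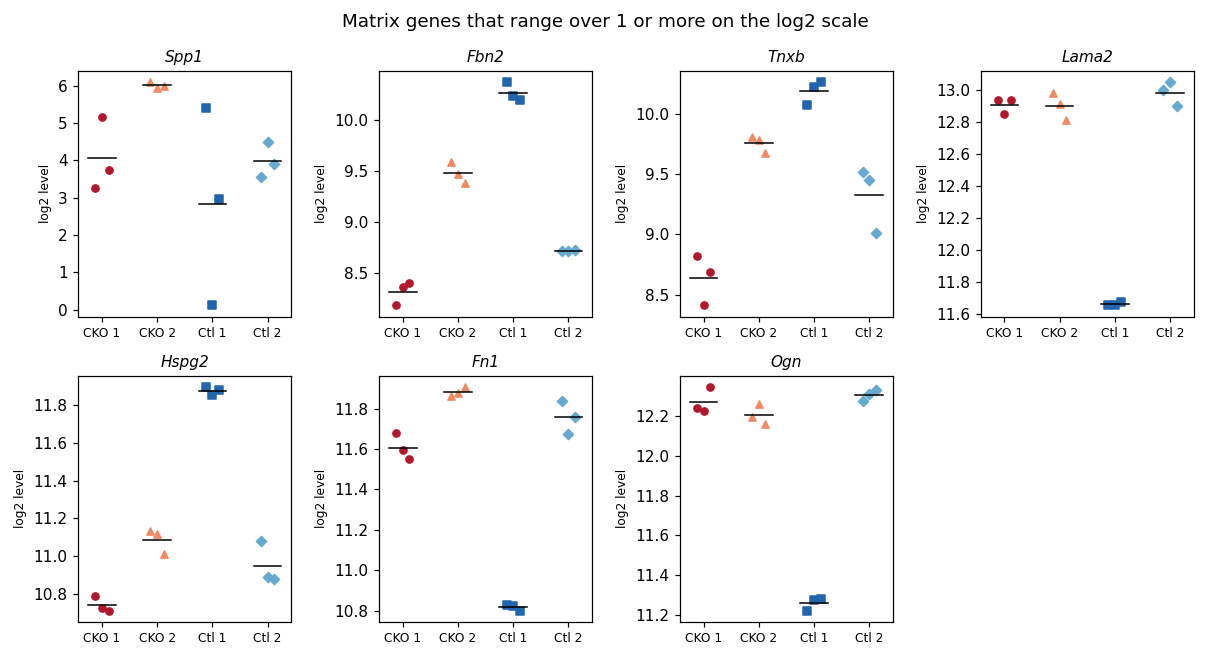
Log2 level on each of the 3 technical arrays of a sample for the 7 matrix genes that range over 1 or more between samples (CKO, Salv CKO; Ctl, Control). The horizontal bars are sample means. The arrays of a sample lie close together except in Spp1 and, to a lesser degree, Tnxb (pooled SD 0.185).

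The samples did not take the extremes evenly. Salv CKO 1 had the highest level for 3 of the 47 genes (6.38%), against 24.2% of all genes, and the lowest for 21 (44.7%), against 29.3%. Salv CKO 2 had the highest level for 16 (34.0%), against 17.8% of all genes, and the lowest for 6 (12.8%), against 18.4%. Control 2 was lowest for 5 (10.6%), against 24.8%. Control 1 was highest or lowest for 29 (61.7%), against 65.6% of all genes. These shares were not tested, as genes of a sample are not independent of each other. Of the 23 collagen chains, Salv CKO 1 was highest for 8.70% and lowest for 47.8%, while Salv CKO 2 was highest for 17.4%, close to its share of all genes.

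**Figure D4:**
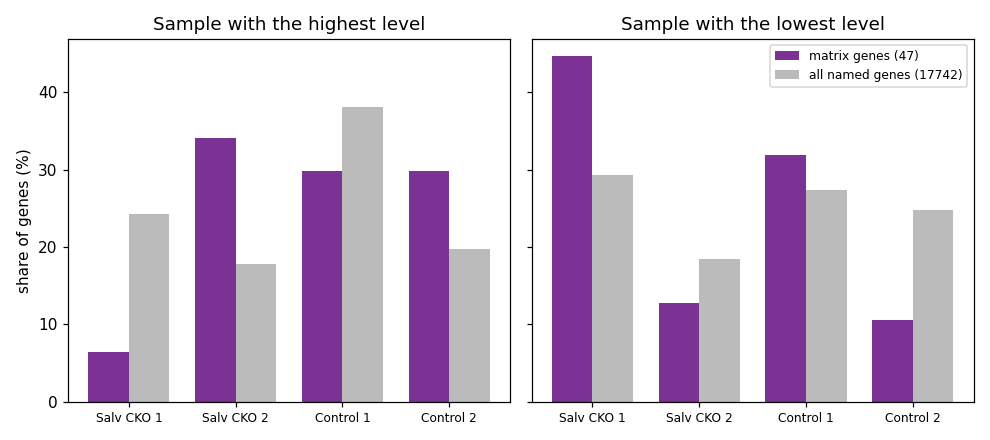
Share of genes for which each sample had the highest (left) or the lowest (right) level, for the 47 matrix genes and for all 17742 named genes. Salv CKO 1 is highest for 6.38% and lowest for 44.7% of the matrix genes.

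A second probe was present for 8 of the 47 genes, and for 6 of these it gave a difference of the opposite sign (Fbln5, Loxl1, Loxl2, Nid1, Thbs2 and Vcan). In Fbln5, Loxl1, Nid1 and Vcan that probe was faint, at deposited intensities of at most 47, so its sign says little. The second probes of Loxl2 and Thbs2 were brighter, at 384 to 679 and 153 to 354. For Lox and Lama3 the signs were the same. The difference kept its sign whichever sample was left out for 24 of the 47 genes.

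Other genes of the matrix and its signalling were taken from 10 further lists, in which 153 of 163 genes were measured. None passed an adjusted p of 0.05 in limma, and at an unadjusted p under 0.05 there was 1 higher and 1 lower gene (1.31%, against 3.32% of all genes). Differences were negative for 102 of the 153, with a median of -0.12, and for 90 to 103 with a sample left out. Without Salv CKO 1 the median was -0.044. Both Salv CKO samples lay below both controls for 41 genes (26.8%, against 16.5% of all genes) and above them for 11 (7.19%, against 14.2%). Collagen chains had 9 of 23 positive differences and a median of -0.12, which became 12 of 23 and 0.0013 without Salv CKO 1, with Col5a1 at -0.32 and Col1a1, near background, at -0.42.

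The lower gene was Itga9, an integrin subunit that binds tenascin-C and osteopontin. Its log2 levels were 10.87 and 10.88 in Salv CKO 1 and 2, against 11.69 and 11.76 in Control 1 and 2, a difference of -0.85 ± 0.20 (SE, 95% interval -1.39 to -0.31, adjusted p = 0.999), and from -0.88 to -0.82 over the 4 fits with a sample left out. Among 23 matrix receptors 8 were positive and 15 negative (median -0.15), which became 12 positive and a median of 0.029 without Salv CKO 1. Among them Itga8 differed by -0.46. The higher gene was Emilin2, a paralogue of Emilin1, at 11.66 and 11.80 in Salv CKO 1 and 2, against 11.02 and 11.18 in Control 1 and 2. Its difference was 0.63 ± 0.22 (SE, 95% interval 0.06 to 1.20, adjusted p = 0.999). In the same list of 13 elastic fibre and latent TGF-beta binding proteins 5 were positive (median -0.040, and 0.10 without Salv CKO 2), and Mfap3l differed by -0.58.

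Among 13 other processing enzymes of collagen and elastin 3 were positive (5 without Control 1, 2 without Control 2), with Pcolce2, an enhancer of procollagen cleavage, at -0.55 and the collagen chaperone Serpinh1 at 0.41. In the list of 9 other basement membrane genes 4 were positive, with Smoc2 at -0.46 and Fras1 at 0.55. Of 22 other proteoglycans 7 were positive, and the syndecans Sdc4 and Sdc2 differed by -0.44 and -0.36. Other hyaluronan genes had 4 of 8 positive, and 2 of 8 without either Salv CKO sample in turn, with the hyaluronan receptor Cd44 at -1.01 (-0.44 without Salv CKO 1) and Has3, near background, at -0.33. In the list of 17 other matricellular and adhesive genes 2 were positive, against 5 or 6 with any 1 of the 4 samples left out, and Ibsp was at background. Matrix proteases and their inhibitors had 6 of 16 positive, with Adamts1, which cleaves versican, at 0.51 and Timp1 at -0.38. TGF-beta genes had 3 of 12 positive, and 1 without Salv CKO 2 or 5 without Salv CKO 1, with the ligand gene Tgfb1 at 0.51 ± 0.23 (SE, 95% interval -0.10 to 1.12) and the inhibitor gene Smad7 at -0.59.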

How the data were processed

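Per the labels' protocols, amplified RNA carrying amino-allyl groups was labelled with Cy5, and each array took 1 sample. The authors deposited intensities, whole numbers from -10 to 65474 for 26423 probes. As some lie below 0, background had been taken off, and array medians ran from 58 to 88. The scanner and any normalization before deposit were not given in the sources used here. Precision is limited by the number of samples.

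The 12 arrays were quantile normalized, values at or below 0 raised to the smallest positive one (0.0833), and log2(value + 1) taken, which understates the change of dim probes. Technical arrays were averaged and counted as 1 replicate. Salv CKO and Control, 2 samples each, were compared over all probes with limma 3.58.1 (R 4.3.3; lmFit, eBayes, Benjamini-Hochberg adjustment, threshold 0.05, 2 residual and 2.60 prior degrees of freedom). Whether the biological replicates of the labels came from separate animals is not said, so p-values rest on the spread among these samples alone. The procedure was tested on simulated data.

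Gene names came from the platform annotation, with old symbols brought to RefSeq's for GRCm38.p6 (18213 by symbol, 2126 by synonym, 38 unmatched and 6046 with no symbol). Members, lists and tests were chosen with earlier results of these data known. In each role the brightest gene and up to 4 genes with the smallest p were given in every sample, and 2 genes per further list. Alternatives are given in the closing section. Figures used matplotlib 3.10.9.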

Additional observations from a re-analysis of the deposited data

How the results depend on the processing

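With the sample number as a replicate block, limma called 0 probes at an adjusted p of 0.05 and 1 matrix gene (Spp1) had an unadjusted p under 0.05. The numbers do not pair the samples by the labels, and the deviations of Salv CKO 1 and Control 1 from their group means correlated at -0.25 over probes. In the crossed pairing, chosen after seeing the data, 0 probes and 0 matrix genes passed (1549 probes at an unadjusted p under 0.05). The count of 0 of 26423 probes became 61 (34 higher, 27 lower) with all 12 arrays and the sample as a random block, 10 with arrays centred on their medians and 11 without normalization. No matrix gene was among these. The random block took the same correlation (0.54) between the arrays of a sample for every probe. Where samples differ far more than their arrays, such a fit counts technical arrays partly as replicates. The SE of Matn2 was 0.092 in that fit, against 0.22 with the arrays averaged. The 0 matrix genes at an unadjusted p under 0.05 became 6 with the random block (Matn2, Mfap4, Loxl1, Thbs2, Lamb2 and Lama3). In that limma fit 2202 of 26423 probes had such a p. The count was 1 each with median centring, no normalization and the replicate block (Spp1), against 962, 1184 and 743 probes. At a pseudocount of 16 and with a variance trend it was 1 each (Nid2), against 775 and 797 probes. Fits with a sample left out are not counted here, as a group then holds 1 sample. Median centring put the median difference at -0.23, against -0.039, and that of all probes at -0.080, and left 13 of 47 matrix genes positive. Without normalization the median of all probes was 0.11 and that of the matrix genes -0.038. With a sample left out 14 to 25 were positive, and the median ran from -0.097 to 0.018. The count of 22 stayed within 18 to 24 in the remaining settings, and the median within -0.078 to 0.0021. Leaving out the dimmest 50% of probes removed 4 matrix genes from the fit. Signs of members changed in 13 genes without Control 1, 9 with median centring and at most 8 in any other setting. Signal over background limits the 6 genes below an intensity of 100 in every sample. The cause of these shifts was not tested.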
